A study of Mus musculus with 9 samples.

Results

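The striated muscle genes measured in whole lung, 41 genes of heart and skeletal muscle, were described on each of 9 arrays. They were chosen by name from a list of muscle genes, with earlier results of these data known. A probe set was counted to a gene where the platform annotation gave it that single symbol. All 41 were found, out of 18193 genes with a single symbol, and 75 of the 45037 probe sets tested belonged to them. They were divided by known use into 14 genes of heart muscle, with atrial isoforms among them, 12 genes of skeletal muscle and 15 genes used by both. For each gene the probe set with the highest mean log2 signal stood for it.

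Female C57BL/6 mice aged 14 weeks received a replication-deficient adenovirus into the trachea, and lung RNA was taken 14 days later. The 3 control mice received AdV-NULL, which carries no cytokine. A further 3 mice received AdV-IL4, encoding mouse IL-4, and the last 3 received AdV-IL4d2, encoding IL-4d2, a splice form of mouse IL-4. All 9 mice therefore carried an adenoviral vector, and no untreated mouse was among them. Each array held RNA of 1 mouse, extracted with Trizol from homogenized lung, so every signal is an average over all cells of the sample, and fewer cells of a type cannot be told apart from less RNA per cell.

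Striated muscle contracts when calcium released from the sarcoplasmic reticulum binds troponin on the thin actin filament and lets myosin pull on it. Heart and fast skeletal muscle build this machine from different isoforms of actin, myosin and troponin, while titin, myoglobin and several mitochondrial and creatine kinase genes serve both. In mice a sleeve of heart muscle of atrial type surrounds the pulmonary veins and runs into the lung, whereas skeletal muscle lies next to the lung, in the diaphragm, the chest wall and the oesophagus.

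Genes of both kinds of muscle are read through elements near their starts, among them the CArG box, which serum response factor binds. The promoter windows below, from RefSeq with the build GRCm38.p6, belong to the 4 heart and skeletal genes whose window held a CArG box, CC followed by 6 bases that are each A or T and then GG, and they set the cardiac and skeletal actins and myosin chains side by side. Each is the 250 bases before the gene start, written 5′ to 3′ on the gene's strand, with the CArG box in capitals. The Acta1 sequence is chr8:123894776-123895025 on the minus strand, Actc1 is chr2:114052876-114053125 on the minus strand, Myh4 is chr11:67237562-67237811 on the plus strand and Myl7 is chr11:5898783-5899032 on the minus strand.
Actc1: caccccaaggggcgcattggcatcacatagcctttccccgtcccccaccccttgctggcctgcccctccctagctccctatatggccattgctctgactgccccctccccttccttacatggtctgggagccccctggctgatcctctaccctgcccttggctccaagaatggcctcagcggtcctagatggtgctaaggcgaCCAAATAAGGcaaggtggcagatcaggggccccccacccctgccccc
Myl7: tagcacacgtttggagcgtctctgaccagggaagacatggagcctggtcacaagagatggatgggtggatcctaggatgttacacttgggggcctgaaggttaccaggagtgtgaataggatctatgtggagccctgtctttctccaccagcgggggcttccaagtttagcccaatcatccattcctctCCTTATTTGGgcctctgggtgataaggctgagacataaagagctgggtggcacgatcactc
Acta1: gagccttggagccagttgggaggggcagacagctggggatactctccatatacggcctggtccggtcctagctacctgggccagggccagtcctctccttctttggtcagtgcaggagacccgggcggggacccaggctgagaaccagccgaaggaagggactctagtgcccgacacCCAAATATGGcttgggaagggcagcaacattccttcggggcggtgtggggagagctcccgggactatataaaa
Myh4: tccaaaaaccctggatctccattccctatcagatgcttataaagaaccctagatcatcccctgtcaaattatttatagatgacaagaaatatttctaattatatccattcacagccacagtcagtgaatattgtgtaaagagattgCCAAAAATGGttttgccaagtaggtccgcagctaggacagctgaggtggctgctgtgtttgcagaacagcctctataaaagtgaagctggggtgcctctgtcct

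The box began 47 bases before the gene start in Actc1, 61 in Myl7, 73 in Acta1 and 104 in Myh4. Windows of 250 bases before to 50 bases after the start were given for 33 of the 41 genes, as 37 windows, and the other 8 had none. A CArG box, whose pattern reads the same on both strands, lay in 7 of these 37 windows, or 18.9%, against 1.63% of all 32851 windows of that length. Those windows belonged to Actc1, Myl7, Acta1, Myh4, Ldb3 and Myom1, 2 genes of each group. Ldb3 had overlapping windows that held the same box, and each window was counted. The MEF2 site, also read alike on both strands, lay in 8.11% of the members' windows and in 0.557% of all windows. The E-box, CANNTG, which the MyoD family binds, lay in 91.9% against 72.3%. The MCAT element, CATTCC searched on both strands, lay in 27.0% against 14.7%. Matches to different motifs overlapped in 0 places in the members' windows. A match here is a description of letters and shows no binding.

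The deposited signals had a 2% trimmed mean of 500 on each array, and array medians lay between 156 and 171. Probe sets of 10 lung epithelial genes summed to between 179222 and 249278 on the 9 arrays, so lung markers were high on every array. The ratio of the 3′ to the 5′ Gapdh probe set, a measure of RNA integrity and labelling, lay between 1.35 and 1.80 on 8 arrays and was 0.955 on the array of control mouse 1. For Actb the ratio was 2.28 on that array and 2.34 to 3.75 on the others. The arrays of 3 mice stood apart from their groups in the muscle genes, control mouse 1, IL-4 mouse 2 and IL-4d2 mouse 2, and the counts and medians of the gene groups are given with and without the arrays that moved them.

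Cardiac and skeletal genes followed different orders over the arrays. On the log2 scale, relative to each gene's mean over 9 arrays, the 14 cardiac genes averaged 1.21, 0.59 and 0.34 in control mice 1 to 3. They averaged -0.40, -2.26 and -0.41 in IL-4 mice 1 to 3, and 0.90, -0.69 and 0.72 in IL-4d2 mice 1 to 3. All IL-4 averages thus lay below all control averages, and IL-4d2 mouse 2 lay apart from the other IL-4d2 mice, below every IL-4 mouse but mouse 2.

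The 12 skeletal genes averaged 4.46, 1.39 and -0.12 in the control mice, -1.03, -1.44 and -0.82 in the IL-4 mice and -0.55, -1.35 and -0.55 in the IL-4d2 mice. Here the control mice differed from one another more than the cytokine groups differed from control mouse 3. The 15 shared genes averaged 2.42, 0.53 and 0.02, then -0.59, -1.74 and -0.61, then 0.39, -0.67 and 0.27, an order between the other groups of genes.

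**Figure D1:**
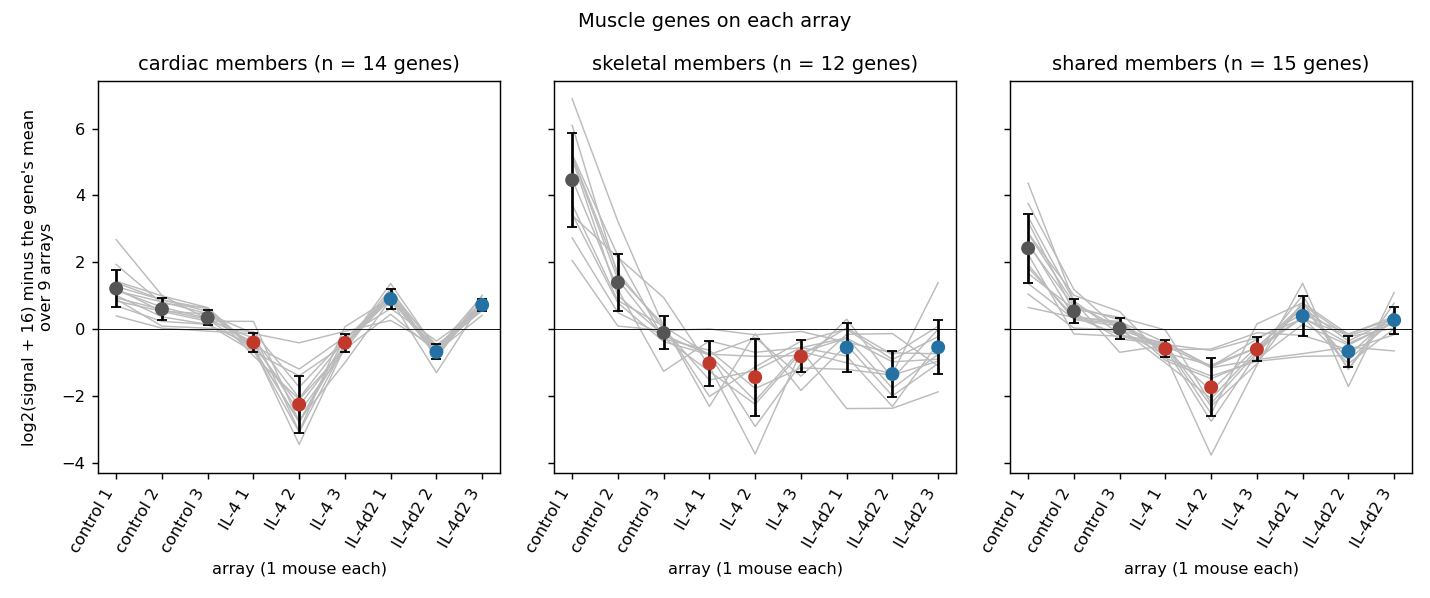
Deviation of each muscle gene from its own mean over 9 arrays, on the log2(signal + 16) scale, for 14 cardiac, 12 skeletal and 15 shared genes. Grey lines are genes, points are the mean over genes on an array and bars the SD over genes. The skeletal mean is 4.46 on control mouse 1 and -0.12 on control mouse 3, while the cardiac mean is lowest, at -2.26, on IL-4 mouse 2.

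Control mouse 1 had the highest signal of all 9 arrays in 38 of the 41 genes: in 11 of 14 cardiac, 12 of 12 skeletal and 15 of 15 shared genes. Its signal was a median 9.69 times that of control mouse 2 in the skeletal genes, with a range of 2.39 to 23.6, against 1.42 times in the cardiac genes and 3.82 times in the shared ones. Against control mouse 3 the median ratio was 41.2 for skeletal, 1.72 for cardiac and 5.50 for shared genes. Control mouse 3 was the lowest control mouse in 41 of 41 genes.

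IL-4 mouse 2 had the lowest signal of all 9 arrays in 32 of the 41 genes, in 13 of 14 cardiac, 5 of 12 skeletal and 14 of 15 shared genes. Its cardiac signals were a median 0.238 of the mean of IL-4 mice 1 and 3, and its skeletal signals 0.770 of theirs. IL-4d2 mouse 2 lay below both other IL-4d2 mice in 36 genes, among them 14 of 14 cardiac genes, at a median 0.332 of their mean in those. Its signal was at or below the highest IL-4 array in 14 of 14 cardiac genes. IL-4d2 mice 1 and 3, by contrast, were both at or above the lowest control mouse in 13 of 14 cardiac and 3 of 12 skeletal genes.

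The spread within groups was therefore wide. The residual SD of the fit had a median of 1.02 on the log2 scale over the 41 genes, 0.851 for cardiac, 1.65 for skeletal and 0.970 for shared genes, against 0.225 over all genes. In 28 of the 41 genes it was above the 95th percentile of all genes, 0.791.

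The first comparison asked how the muscle genes stood with the IL-4 virus against the control virus. In limma's moderated test with Benjamini-Hochberg adjustment over all 45037 probe sets, 10 of the 41 genes fell and 0 rose at an adjusted p under 0.05, where 3.06% of all genes were called lower and 3.24% higher. Of the cardiac genes 3 of 14 fell, Actc1, Sln and Pln. Of the skeletal genes 1 of 12 fell, Car3. Of the shared genes 6 of 15 fell, Tcap, Trdn, Fabp3, Hrc, Cox7a1 and Cox8b.

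All 41 differences were below 0, with a median of -2.10 on the log2 scale, against -0.01 over all genes. The medians were -1.77 for cardiac, -3.47 for skeletal and -1.86 for shared genes. The unadjusted p was under 0.05 in 38 genes, against 22.0% of all genes. In 36 of the 41 genes every IL-4 array lay below every control array, 14 of 14 cardiac, 9 of 12 skeletal and 13 of 15 shared, where 13.1% of all genes did so, and in 0 genes did they lie above, where 12.2% did. With only probe sets above their array's median on at least 3 arrays, 21 of the 37 genes tested fell and 0 rose, where 6.63% and 6.34% of the 11984 genes tested did; 4 genes drop out there, so this count describes the fit and no more.

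The calls rested on few arrays and on the variance model: without a mean-variance trend in limma 0 of the 41 genes were called, with a lowest adjusted p of 0.0985, where 0.401% of all genes were called lower. Without control mouse 1 the count fell from 10 to 1, Tcap, where 1.18% of all genes were called lower. Without IL-4 mouse 2 it fell to 1, Actc1, where 1.98% were, whereas without control mouse 3 it was 20, where 1.76% were. It was 12 without IL-4d2 mouse 2, 5 without IL-4d2 mouse 3, 6 without IL-4d2 mouse 1, and 4 in each of the fits without IL-4 mouse 1, without IL-4 mouse 3 and without control mouse 2. Across the fits with counts of 4 to 12, 1.9% to 2.39% of all genes were called lower. The medians without control mouse 1 were -1.60 for cardiac, -1.97 for skeletal and -1.28 for shared genes, and without IL-4 mouse 2 they were -1.15, -2.97 and -1.41. With both of these mice left out the medians were -0.91, -1.63 and -0.84, and 40 of 41 differences were below 0. In that fit 1 gene, Tcap, remained called, where 0.77% of all genes were called lower.

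Among the contractile genes of the heart, Actc1, the cardiac actin of the thin filament, was the brightest. Its signals were 11539, 5143 and 4686 in control mice 1 to 3, 1722, 685 and 1983 in IL-4 mice and 4094, 1880.3 and 4010.1 in IL-4d2 mice. Every IL-4 signal except that of mouse 3 lay below all IL-4d2 signals, and all IL-4 and all IL-4d2 signals lay below all control signals. Actc1 fell by 2.28 ± 0.43 (SE of the fit, 3 mice per group) with IL-4, 4.86-fold, with an adjusted p of 0.0132. It kept this call in 8 of the 9 fits that left out 1 array, losing it without control mouse 1.

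Myh6, the alpha heavy chain of cardiac myosin, had signals of 5681, 4194 and 3288 in control mice, 1418, 177 and 1451 in IL-4 mice and 5427, 1362 and 3523 in IL-4d2 mice. The IL-4 signals were all below the control signals, while IL-4d2 mice 1 and 3 lay within the control range and mouse 2 among the IL-4 mice. The difference for IL-4 was -2.54 ± 0.68, with an adjusted p of 0.0626, and did not pass the test.

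Myl7, the atrial regulatory light chain of myosin, had signals of 5339, 3739 and 3102 in control mice, 1304, 225 and 1443 in IL-4 mice and 4708, 1091 and 4121 in IL-4d2 mice. Control mouse 1 was again highest and IL-4 mouse 2 lowest, with no overlap between IL-4 and control. The difference was -2.36 ± 0.65, with an adjusted p of 0.0678. Tnnt2, the cardiac troponin T that ties troponin to the thin filament, had signals of 3573, 2719 and 2132 in control mice, 995, 199 and 1077 in IL-4 mice and 3114, 835 and 2681 in IL-4d2 mice. IL-4d2 mice 1 and 3 again lay among the control mice and IL-4d2 mouse 2 below IL-4 mice 1 and 3. Its difference with IL-4 was -2.16 ± 0.58, with an adjusted p of 0.0646.

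Sln, sarcolipin, and Pln, phospholamban, are small membrane proteins that restrain the calcium pump of the sarcoplasmic reticulum. Sln signals were 5472, 1712 and 1037 in control mice, 541, 113 and 412 in IL-4 mice and 1575, 331 and 1492 in IL-4d2 mice. Control mouse 1 was far above the other control mice, and the IL-4 signals did not overlap the control signals. Sln fell by 2.78 ± 0.71, 6.87-fold, with an adjusted p of 0.0499, a call kept in 2 of the 9 fits that left out 1 array.

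Pln, named because it passed the test, had signals of 740.2, 585 and 454 in control mice, 229, 53.4 and 228 in IL-4 mice and 624, 209 and 490.3 in IL-4d2 mice. It fell by 1.90, 3.72-fold, with an adjusted p of 0.047, and kept the call in 1 of those 9 fits. Dimmer probe sets of Pln were not called in limma's test, with differences of -0.92 and -0.82 (adjusted p of 0.17 and 0.218). On the former, IL-4 mouse 3, at 198.7, lay above control mouse 3, at 187.5. The other 8 cardiac genes had differences of -1.89 to -0.33 and adjusted p of 0.0696 to 0.582. At one end was Myl4, the atrial essential light chain, and at the other Mybpc3, cardiac myosin-binding protein C. Nppa, which encodes the atrial hormone natriuretic peptide A, lay at -1.65 with an adjusted p of 0.228.

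A list drawn up as ventricular held 5 genes, of which 2 were above their array's median on at least 3 arrays. With IL-4 its median was -0.30, with 4 of 5 differences below 0. Its mean deviations were 0.89, 0.35 and 0.11 in control mice. They were -0.32, -0.32 and -0.11 in IL-4 mice and -0.08, -0.27 and -0.24 in IL-4d2 mice. Of the 5 genes 0 were called in limma's test, Hey2 included. Irx4, a ventricular transcription factor, was not above the brightest bacterial trp control probe set on any array. Myl2, the ventricular regulatory light chain, had signals between 48.5 and 126 on all 9 arrays, below every array's median. Myh7, the beta heavy chain of cardiac myosin, lay between 445 and 678. Myl3, a light chain of the ventricle and of slow skeletal muscle, followed the skeletal genes. Its signals were 5879, 363 and 171 in control mice, 51.0, 62.8 and 108 in IL-4 mice and 168, 50.3 and 122 in IL-4d2 mice. Myl2, Irx4 and Myl3 are singled out here after their values were seen.

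A further list of 20 measured cardiac genes had a median of -0.45 with IL-4. The list had 3 called lower and 1 higher, where 3.06% and 3.24% of all genes were. Nexn, nexilin, fell by 0.78 (adjusted p of 0.00786) and kept its call in 9 of 9 fits that left out 1 array. Nebl, nebulette, and Tbx5, a transcription factor also used by lung mesenchyme, fell by 0.45 and 0.73 (adjusted p of 0.0201 and 0.0481) and kept their calls in 4 and 2 of 9 fits.

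Corin, the protease that activates the hormone encoded by Nppa, was the gene that rose. Its signals were 82.7, 83.7 and 55.5 in control mice, 237, 229.6 and 241 in IL-4 mice and 85.9, 28.2 and 24.0 in IL-4d2 mice. All IL-4 signals lay above the array medians and above all other signals, which lay below their array medians. It rose by 1.5 ± 0.37 against control, with an adjusted p of 0.0422, and kept this call in 3 of 9 fits, losing it without any one control or IL-4 mouse.

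**Figure D2:**
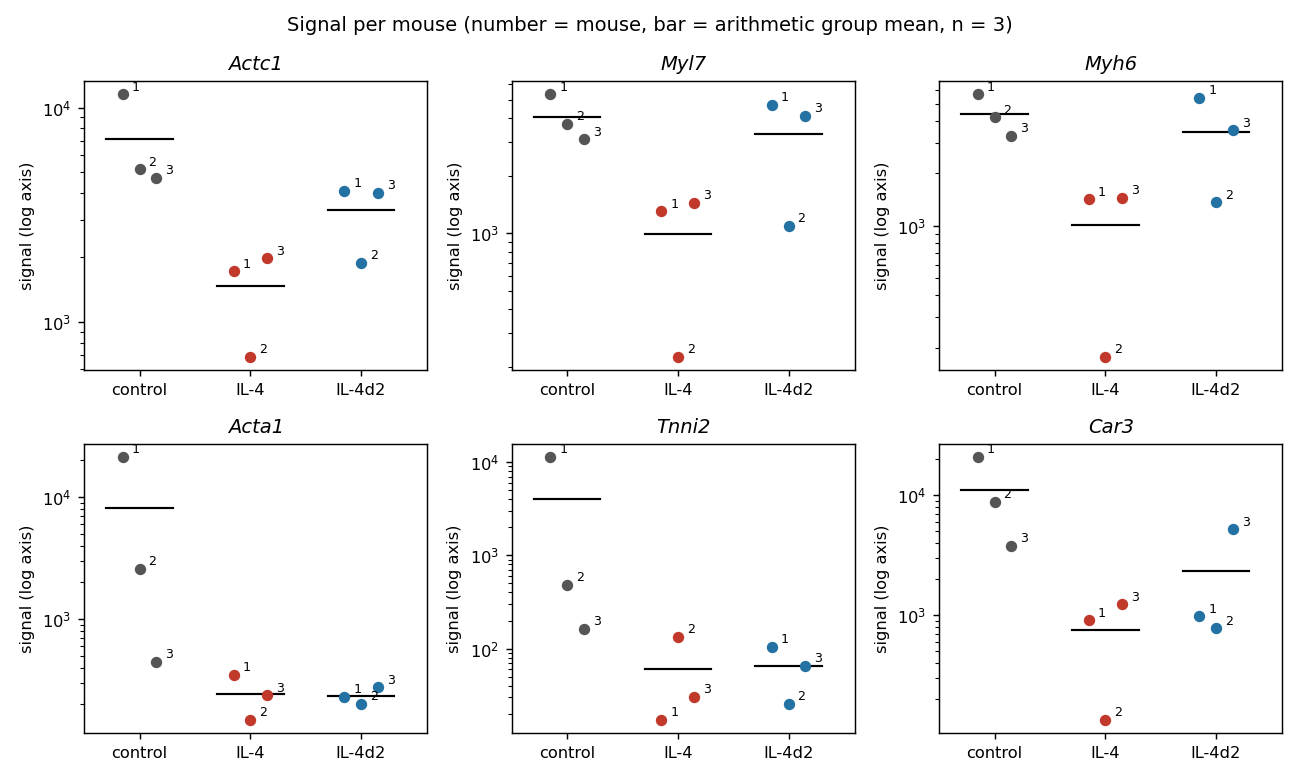
Deposited signal on each array, on log axes that differ between panels, for 3 cardiac genes (Actc1, Myl7, Myh6, top) and 3 skeletal genes (Acta1, Tnni2, Car3, bottom). Points are mice, numbers their replicate and bars the arithmetic mean of 3 mice. In the cardiac genes IL-4d2 mice 1 and 3 lie near the control mice and mouse 2 near the IL-4 mice, and in the skeletal genes control mouse 1 lies far above the rest, at 21385 for Acta1.

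Among the contractile genes of skeletal muscle the control mice spanned a wide range. Acta1, the skeletal actin, had signals of 21385, 2573 and 448 in control mice, 349.5, 149.6 and 238 in IL-4 mice and 230.0, 203 and 276 in IL-4d2 mice. Both cytokine groups lay below all control mice, and control mouse 3 was close to them. The difference for IL-4 was -3.57 ± 0.96, with an adjusted p of 0.0637, and it was -2.14 without control mouse 1.

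Tnni2 and Tnnc2 encode the inhibitory and the calcium-binding subunit of fast skeletal troponin. Tnni2 signals were 11365, 482 and 164 in control mice, 17.3, 135 and 30.4 in IL-4 mice and 104, 25.5 and 65.2 in IL-4d2 mice. Its difference for IL-4 was -4.03 ± 1.17, with an adjusted p of 0.0828, and -2.28 without control mouse 1. On this probe set the cytokine groups overlapped each other and lay below all control mice. Another Tnni2 probe set was nearly as bright, with a mean log2 signal of 7.30 against 7.37. There control mouse 3, at 58.0, lay below all IL-4 mice, at 98.0, 77.9 and 77.9, and below IL-4d2 mouse 3, at 79.2. Its IL-4 difference was -2.93, with an adjusted p of 0.248 in limma's test.

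Tnnc2 signals were 12549, 971 and 95.7 in control mice, 45.7, 7.88 and 52.8 in IL-4 mice and 4.33, 4.46 and 12.8 in IL-4d2 mice. The IL-4d2 signals were at or below the brightest trp control on their arrays, so no fold is given. The difference for IL-4 was -4.58 ± 1.22, with an adjusted p of 0.0605, and Tnnc2 did not pass the test. Without control mouse 1 it was -2.83.

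Of the metabolic and calcium-handling genes of this group, Car3, the carbonic anhydrase of slow muscle, which fat also makes in quantity, was the one that fell. Its signals were 21001, 8803 and 3804 in control mice, 903, 133 and 1233 in IL-4 mice and 973, 773 and 5199 in IL-4d2 mice. IL-4 mice lay below all control mice, whereas IL-4d2 mouse 3 lay within the control range. Car3 fell by 4.0 ± 0.86 with IL-4, 16.1-fold, with an adjusted p of 0.0253, a call kept in 6 of 9 fits that left out 1 array. The difference was -3.39 (adjusted p of 0.10) without control mouse 1 and -3.06 (adjusted p of 0.067) without IL-4 mouse 2.

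Eno3, the muscle enolase of glycolysis, had signals of 4515, 945 and 579.9 in control mice, 389.9, 372 and 378 in IL-4 mice and 684, 385 and 708 in IL-4d2 mice. The IL-4 mice lay close together below all control mice, but the difference of -1.80 ± 0.55 had an adjusted p of 0.0995, and it was -0.93 without control mouse 1. Casq1, the calcium-binding calsequestrin of fast muscle, had signals of 1007, 247 and 224 in control mice, 231, 203 and 219 in IL-4 mice and 172, 134 and 132 in IL-4d2 mice. Apart from control mouse 1 its arrays were close together. The IL-4 difference was -0.78 ± 0.43, with an adjusted p of 0.392, and -0.11 without control mouse 1. The other 6 skeletal genes, Myl1, Mylpf, Tnnt3, Apobec2, Atp2a1 and Myh4, had differences of -3.55 to -2.01 and adjusted p of 0.0684 to 0.366.

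A further list of 25 skeletal genes had a median of -0.93 with IL-4. The list had 2 called lower and 0 higher, where 3.06% and 3.24% of all genes were. Its mean deviation was 2.69 on control mouse 1 and between -0.71 and 0.51 on the other 8 arrays. Myh1, a fast myosin heavy chain, had signals of 16776, 1594 and 94.1 in control mice, 35.6, 17.9 and 18.4 in IL-4 mice and 35.7, 2.15 and 46.5 in IL-4d2 mice. It fell by 5.20 ± 1.3, with an adjusted p of 0.0464, and Myot, myotilin of the Z-disc, also fell, with an adjusted p of 0.0486. The Myot signals of the IL-4 mice, 5.25, 7.84 and 4.49, were near the trp controls, so no size is given. The calls of Myh1 and Myot were kept in 1 and 2 of the 9 fits that left out 1 array. Fast myosin heavy chain genes are near-identical copies, so signals of Myh1 and Myh4 may not be fully separate.

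Of the shared genes, Ttn encodes titin, the elastic filament that spans the sarcomere, and Tcap encodes telethonin, which caps titin at the Z-disc. Ttn signals were 9291, 1612 and 800.3 in control mice, 592, 118 and 529 in IL-4 mice and 1419, 461 and 1102 in IL-4d2 mice. Tcap signals were 3905, 1078 and 812 in control mice, 340.0, 228 and 349 in IL-4 mice and 737, 473 and 777 in IL-4d2 mice. In both genes no IL-4 array overlapped the control arrays, and for Tcap none overlapped the IL-4d2 arrays either. Tcap fell by 2.27 ± 0.45, 4.82-fold, with an adjusted p of 0.0163, and kept the call in 8 of 9 fits, losing it without IL-4 mouse 2. For Ttn the difference was -2.71 ± 0.79, with an adjusted p of 0.0854, and -1.70 without control mouse 1.

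Trdn, triadin, and Hrc, the histidine-rich calcium-binding protein, belong to the calcium release machinery of the sarcoplasmic reticulum. Trdn signals were 905, 237 and 164 in control mice, 52.6, 31.3 and 48.3 in IL-4 mice and 55.1, 56.3 and 157 in IL-4d2 mice. Both cytokine groups lay below all control mice, IL-4 lowest. Trdn fell by 2.55 ± 0.55 with IL-4, 5.86-fold, with an adjusted p of 0.025, and Hrc by 1.39 ± 0.32, 2.63-fold, with an adjusted p of 0.0323.

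The oxygen and energy supply of both muscles is served by Mb, myoglobin, by Ckm, the muscle creatine kinase, and by Cox6a2, a subunit of cytochrome c oxidase. Mb signals were 12027, 2010.1 and 851 in control mice, 502, 49.1 and 402 in IL-4 mice and 2281, 254 and 1883 in IL-4d2 mice. IL-4d2 mice 1 and 3 lay within the control range and IL-4d2 mouse 2 among the IL-4 mice. The IL-4 difference was -3.52 ± 1.04, with an adjusted p of 0.0881. Ckm signals were 7707, 651 and 215 in control mice, 249.9, 152 and 183 in IL-4 mice and 209, 241 and 222 in IL-4d2 mice. Here control mouse 3 lay among the cytokine groups, and the IL-4 difference was -2.36 ± 0.89, with an adjusted p of 0.189. Without control mouse 1 the differences were -0.92 for Ckm and -2.46 for Mb.

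Cox6a2 signals were 1763, 863 and 830.0 in control mice, 610.3, 537 and 702 in IL-4 mice and 1051, 737 and 979 in IL-4d2 mice. Control mouse 1 stood highest and the IL-4 mice lowest, and the IL-4 difference was -0.80 ± 0.24, with an adjusted p of 0.0981. Fabp3, the fatty acid-binding protein of muscle, had signals of 1002, 814 and 745 in control mice, 474, 283 and 513 in IL-4 mice and 872, 571 and 791 in IL-4d2 mice. It fell by 1.02 ± 0.22, 2.02-fold, with an adjusted p of 0.0235, and no IL-4 array overlapped another group. Cox7a1 and Cox8b, oxidase subunits that brown fat also uses, fell by 1.80 and 2.45, with adjusted p of 0.047 and 0.041. Fabp3 and Trdn kept their calls in 6 and 5 of the 9 fits that left out 1 array, Hrc in 4, and Cox7a1 and Cox8b in 1 each. Fabp3, Hrc, Cox7a1 and Cox8b are named because they passed the test. The other 5 shared genes, Ckmt2, Ldb3, Myom1, Myom2 and Actn2, had differences of -2.40 to -1.21 and adjusted p of 0.114 to 0.278.

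The second comparison set the IL-4d2 virus against the same 3 control arrays, which both comparisons share. In limma's test 0 of the 41 genes were called, where 0.154% of all genes were called lower and 0.412% higher, and the lowest adjusted p among the 41 was 0.0849, that of Tnnc2. The unadjusted p was under 0.05 in 17 genes, 1 cardiac, 12 skeletal and 4 shared, against 12.4% of all genes. The difference was below 0 in 40 of the 41 genes, with medians of -0.34 for cardiac, -2.44 for skeletal and -1.09 for shared genes. Without control mouse 1 these medians were -0.12, -1.11 and -0.33, and 34 of the 41 differences were below 0. In 11 genes every IL-4d2 array lay below every control array, 1 cardiac, 7 skeletal and 3 shared, where 9.54% of all genes did so, and in 0 genes did they lie above, where 9.35% did. Among probe sets above their array's median on at least 3 arrays 0 of 37 genes were called too, where 0.401% and 0.859% of all genes were called lower and higher.

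In the cardiac genes the IL-4d2 differences ran from -1.19 for Sln to 0.04 for Myoz2, a Z-disc protein of slow and heart muscle. For Actc1 the difference was -1.05 (95% interval -2.0 to -0.11, adjusted p of 0.416) and for Myh6 -0.53 (-2.01 to 0.96, adjusted p of 0.860). For Myl7 it was -0.51 (-1.93 to 0.90) and for Tnnt2 -0.52 (-1.80 to 0.76). These intervals, wide as they are, hold both no difference and a fall of more than 1 for Myh6, Myl7 and Tnnt2. Without IL-4d2 mouse 2 the cardiac median was 0.19, above 0, and the skeletal median -1.98.

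In the skeletal genes other than Tnnc2, whose IL-4d2 signals were at background, the IL-4d2 differences ran from -3.77 for Tnni2 to -1.22 for Eno3. The difference was -3.56 for Acta1 (95% interval -5.67 to -1.45, adjusted p of 0.173), -3.77 for Tnni2 (-6.33 to -1.21) and -2.48 for Car3 (-4.37 to -0.59). These values rest on the same control mice that spanned 448 to 21385 for Acta1. Among the shared genes the differences ran from -2.15 for Ckm to -0.20 for Fabp3.

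**Figure D3:**
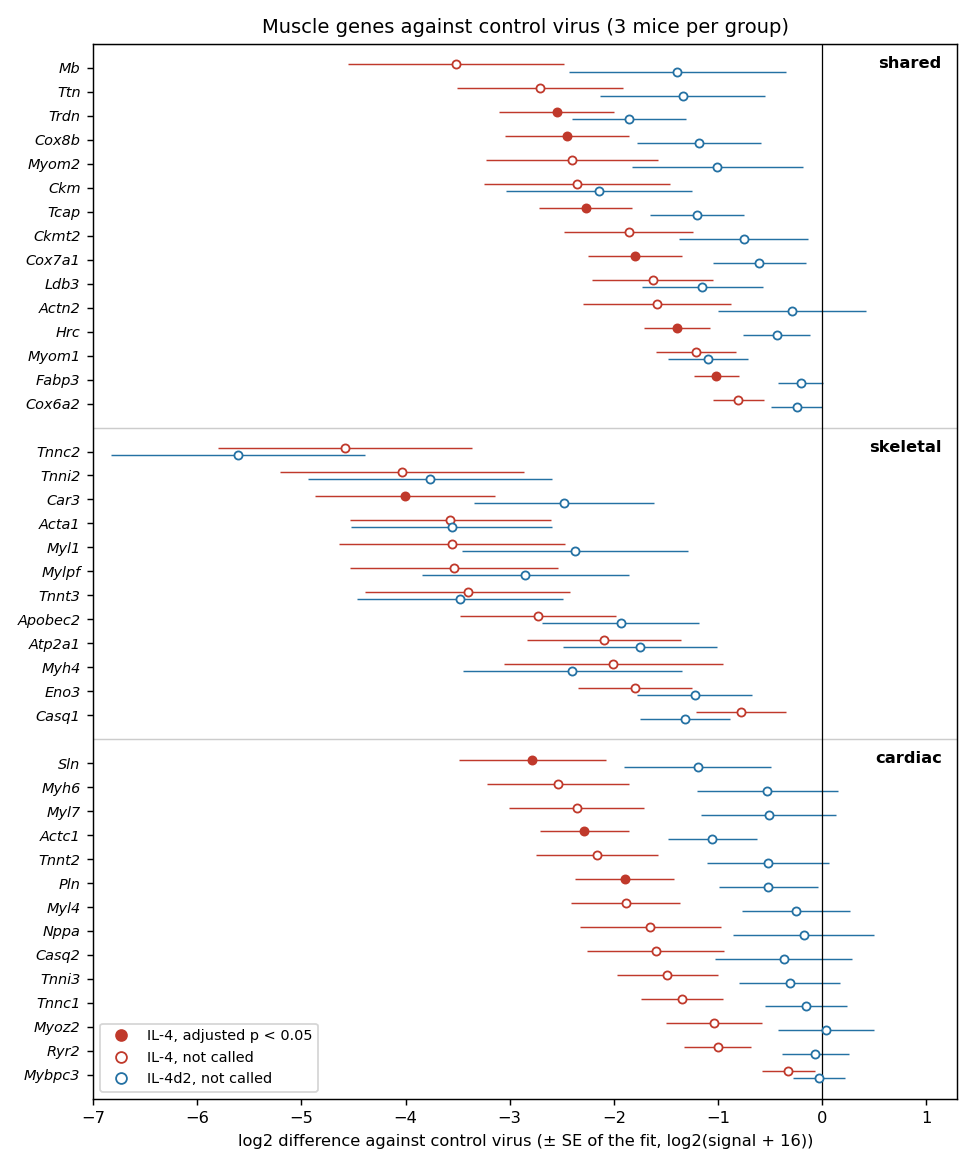
Difference against the control virus on the log2(signal + 16) scale for all 41 genes, ± the SE of the fit, with 3 mice per group. Red is IL-4 and blue IL-4d2, and filled points had an adjusted p under 0.05 in limma's test. The 10 filled points are all IL-4, the blue points of the cardiac genes lie between -1.19 and 0.04, and the blue point of Tnnc2 rests on signals at background.

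The third comparison set IL-4 against IL-4d2 directly. In limma's test 0 of the 41 genes were called, where 0.363% of all genes were called lower and 0.506% higher, and the lowest adjusted p was 0.146, that of Fabp3. The unadjusted p was under 0.05 in 16 genes, 11 cardiac, 0 skeletal and 5 shared, against 14.8% of all genes. All 14 cardiac and all 15 shared differences were below 0, as were 8 of 12 skeletal ones, with medians of -1.31, -1.07 and -0.30. Every IL-4 array lay below every IL-4d2 array in 7 genes, all shared, and above them in 1, where 10% of all genes lay below and 9.62% above. Among the brighter probe sets 0 of 37 were called as well, where 1.05% were called lower and 1.18% higher.

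The direct differences were -2.01 for Myh6 and -1.85 for Myl7, with adjusted p of 0.262 and 0.278, and -1.23 for Actc1. For Acta1 the difference was -0.01 and for Tnni2 -0.27, with adjusted p of 0.998 and 0.961, and these widely spread values do not show that the groups were alike. Without IL-4d2 mouse 2 the cardiac median was -1.77, and the lowest adjusted p of the 41 was 0.0524. Without IL-4 mouse 2 the cardiac median was -0.77, the median of all 41 genes moved from -1.08 to -0.58 and the lowest adjusted p was 0.257. In both fits 0 of the 41 genes were called, where 0.132% and 0.187% of all genes were called lower. Corin was higher with IL-4 than with IL-4d2 by 2.16 (adjusted p of 0.0256), a call kept in 4 of 9 fits that left out 1 array.

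Markers of other tissues were measured on the same arrays. In 10 fat genes, of 12 listed, 2 fell with IL-4 and 0 rose, where 3.06% and 3.24% of all genes did. The median of the fat genes was -1.46. Their summed signal ran from 9206 to 21954 with the control virus, from 7564 to 8259 with IL-4 and from 6343 to 10980 with IL-4d2, highest in control mouse 1. Adipoq, the fat hormone adiponectin, had signals of 1747, 697 and 529 in control mice, 111, 39.1 and 229.7 in IL-4 mice and 118, 131 and 643 in IL-4d2 mice. Adipoq fell by 2.88, with an adjusted p of 0.0322, and Cidec, a lipid droplet protein, by 2.41, with an adjusted p of 0.00271. Cidec kept its call in 9 of 9 fits that left out 1 array and Adipoq in 5, losing it without control mouse 1 or 2 or IL-4 mouse 1 or 2. Like Car3, Adipoq was highest in control mouse 1 and higher in IL-4d2 mouse 3 than in the other IL-4d2 mice.

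In 12 smooth muscle genes 7 fell with IL-4 and 0 rose, where 3.06% and 3.24% of all genes did. The median of the smooth muscle genes was -1.14. Their summed signal ran from 32379 to 37349 with the control virus, from 13768 to 20146 with IL-4 and from 16726 to 26396 with IL-4d2. Unlike the skeletal genes they differed little among control mice, with mean deviations of 0.61, 0.68 and 0.46, and IL-4 mouse 2 was lowest of the 9 arrays at -0.97. Among them Myh11, the smooth muscle myosin, fell by 1.91, Tagln, transgelin, by 1.21 and Acta2, the smooth muscle actin, by 1.06, with adjusted p of 0.00818, 0.0072 and 0.0267. Myh11 and Tagln kept their calls in 9 of 9 fits that left out 1 array, and Acta2 in 6.

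Cartilage genes of the airway wall had 0 of 11 called and a median of 0.02, with summed signals of 634 to 784, 594 to 756 and 530 to 619 in the control, IL-4 and IL-4d2 mice. The thyroid and parathyroid list had 0 of 4 called and a median of 0.03, the list of squamous epithelium, such as the oesophagus has, 0 of 7 and 0.05, the nerve list 0 of 3 and 0.00, the thymus list 0 of 7 and 0.54 and the red blood cell list 0 of 3 and 0.17. Many of these genes were low. Above their array's median on at least 3 arrays were 1 of 11 cartilage, 0 of 4 thyroid and parathyroid, 2 of 7 squamous and 1 of 7 thymus genes. For nerve this was 3 of 3 and for red blood cells 2 of 3. Flat values of the low lists say little about how much of those tissues a sample held. Squamous sums ran from 574 to 669 with the control virus, from 399 to 840 with IL-4 and from 452 to 773 with IL-4d2, with control mouse 1 the highest of the control mice but not of all 9 arrays. Lung epithelial genes had a median of 0.20 with IL-4, with Aqp5 lower by 0.38 and Sftpd higher by 0.56, both calls kept in 1 of 9 fits. With IL-4d2 against control 0 genes of these lists were called, where 0.154% of all genes were called lower and 0.412% higher.

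Tissue taken along when the lung was removed would add skeletal muscle, fat or heart to a sample, and the labels do not say how the lungs were trimmed. By mean deviation the cardiac genes, the skeletal genes and the fat list all stood highest in control mouse 1, at 1.21, 4.46 and 1.62. All of them stood lowest in IL-4 mouse 2, at -2.26, -1.44 and -1.13. The mean deviation of the smooth muscle list was highest in control mouse 2, at 0.68, and lowest in IL-4 mouse 2, at -0.97. That of the lung epithelial list was lowest in control mouse 1, at -0.24, and highest in IL-4 mouse 2, at 0.19. The summed signal of the lung list was also lowest in control mouse 1, but highest in control mouse 2. By summed signal the fat list was lowest in IL-4d2 mouse 2, at 6343. The Gapdh ratio was lowest in control mouse 1. On IL-4d2 mouse 1 the lists differed, with mean deviations of 0.90 for cardiac genes, -0.55 for skeletal genes, -0.10 for smooth muscle and -0.38 for fat. Of the 5 ventricular genes Irx4 was not above the trp controls and Myl2 stayed below the median on every array. Myh7 was measured on all arrays and Myl3 was high in control mouse 1. The summed signal of the 5 was 6658 in control mouse 1 and 735 to 1153 on the other 8 arrays. The cardiac median was -0.91 and the skeletal median -1.63 without control mouse 1 and IL-4 mouse 2. The part of carried-over tissue and of RNA quality in these differences was not tested.

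**Figure D4:**
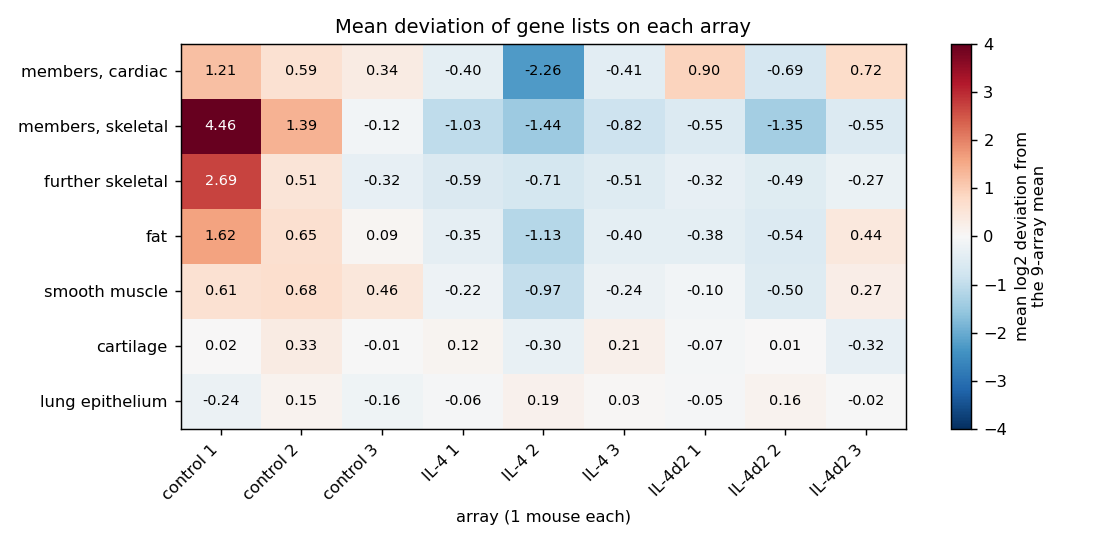
Mean log2 deviation from the 9-array mean for the cardiac and skeletal members and for 5 lists of other genes on each array, as colour and number. Both skeletal lists are highest on control mouse 1 (4.46 and 2.69), as is fat (1.62), while cartilage and lung epithelium stay between -0.32 and 0.33 on all arrays. Of the 11 cartilage genes 1 was above its array's median on at least 3 arrays.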

How the data were processed

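Lung RNA of 9 mice, 3 per virus, was measured on Affymetrix 3' expression arrays, 1 per mouse. The deposited values are linear signal intensities, 1 per probe set. Expression Console 2.0 of Affymetrix is listed in the submitters' processing notes beside MAS5 and GCOS, without their roles. The deposited intensities were used without further normalization, as log2(signal + 16), so a difference between low signals is understated.

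All 9 arrays entered 1 limma fit (limma 3.58.1, R 4.3.3; lmFit and eBayes with a mean-variance trend) with 3 contrasts. Benjamini-Hochberg adjustment ran over 45037 probe sets, without 64 control probe sets, at a threshold of 0.05. No filter on low signals was set, since a filter can pass a gene through its high group only. Of 45101 probe sets, 34958 had a single gene symbol, 932 several and 9211 none. The test was checked on simulated data with independent noise for each probe set and shifts in brighter probe sets only. These data did not imitate a mouse in which many genes move together. The IL-4 and IL-4d2 contrasts share the control arrays. The small number of arrays limits the precision. The p-values set each difference against the spread between these mice, moderated by that of other probe sets through the mean-variance trend.

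The muscle genes and the other lists were chosen with earlier results of these data known. In each group of muscle genes, signals on every array are given for the 4 brightest genes and the 2 with the largest difference in each contrast against control. Others are named where they passed the test, or as said. Of further lists, the 2 brightest and any that passed may be named. Background was judged by the bacterial trp control probe sets.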

Additional observations from a re-analysis of the deposited data

Results flagged for a closer look

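Corin, the protease that activates natriuretic peptide A, differed between the 2 forms of the cytokine, with a log2 difference of 2.16 for IL-4 against IL-4d2 (limma, adjusted p of 0.0256). Its signals were 237, 229.6 and 241 in IL-4 mice and 85.9, 28.2 and 24.0 in IL-4d2 mice, with no overlap. The call was lost without any one IL-4 mouse and without IL-4d2 mouse 2 or 3, with differences of 1.91 to 2.58 over the 9 fits that left out 1 array. None of the 41 muscle genes was called in this comparison in limma's test, in which 16 had an unadjusted p under 0.05.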

How the results depend on the processing

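With IL-4 against control, 10 of 41 genes were called. The count was 21 of 37 (8 cardiac, 5 skeletal, 8 shared) with probe sets above their array's median on at least 3 arrays, 22 with the replicate number as a block (2.86% of all genes called lower), 26 at a threshold of 0.10 (5.13%), 6 with array weights (2.85%), 6 with the 6 arrays of those groups (1.58%), 1 without control mouse 1 and IL-4 mouse 2 (0.77%), and 0 with eBayes without a trend (0.401%; lowest adjusted p of 0.0985). Nothing in the labels ties a mouse number to a litter or day, and deviations of same-numbered mice from their group means correlated at -0.02 to 0.07, so the block does not pair the mice. Leaving out 1 array gave 1 to 20, where 1.18% to 2.39% of all genes were called lower. Scaling to the poly-A controls gave 41 and to the hybridisation controls 34, where 50.2% and 9.44% of all genes were called lower and the median of all genes shifted by -0.71 and -0.40. With IL-4d2 the count of 0 became 1 with a pseudocount of 1 (0.17% of all genes called lower) and at a threshold of 0.10 (0.374%). It was also 1 with poly-A scaling (0.055%) and with hybridisation scaling (0.0495%). Without 1 array it was 0 to 2 (0.0715% to 0.203%), the 2 being Acta1 and Tnnc2 without control mouse 3 (0.11%). Between IL-4 and IL-4d2 the count became 30 and 6 with the scalings (69.1% and 3.65% of all genes called lower), which shifted all genes by -0.97 and -0.46. It stayed 0 without any 1 array (0.033% to 0.335%). Of the 17 genes with signals given by the naming rule, differences that changed sign under another setting were those of Mb with IL-4d2 (0.78) and of Tnni2 between cytokines (0.35) with the probe set of largest moderated t, of Cox6a2 with IL-4d2 (0.026 with poly-A scaling, 0.11 without both mice), of Casq1 between cytokines (-0.44 with poly-A scaling) and of Acta1 between cytokines (0.28 without both mice). Over fits without 1 array, Cox6a2 with IL-4d2 ranged from -0.43 to 0.11, Myh6 from -0.96 to 0.031, Myl7 from -0.89 to 0.15 and Tnnt2 from -0.87 to 0.073, and between cytokines Tnni2 ranged from -0.91 to 0.18 and Acta1 from -0.29 to 0.28. Over all 41 genes and 21 alternatives, leave-one-out fits included, the sign changed at least once in 1 gene with IL-4, Actn2 (-1.58, and 0.0084 without both mice), in 16 with IL-4d2, 11 of them among the other 24 genes, and in 5 between cytokines. The cause was not tested. Of the values of those 17 genes under an alternative, 1000 kept direction and side of the threshold, 74 newly passed, 28 were lost and 14 changed sign. Of the 75 probe sets, 34 did not stand for their gene, and 27 of these were lower and 7 higher with IL-4.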

Other observations

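Genes of muscle growth and regeneration were mostly low against the array medians. Of 9 such genes, 1 was above its array's median on at least 3 arrays, Fbxo32, a ubiquitin ligase of muscle wasting. Its signals were 1014.5, 691 and 549.9 in control mice, 429, 286 and 399.9 in IL-4 mice and 405, 366 and 453 in IL-4d2 mice. All signals of both cytokine groups lay below all control signals. Fbxo32 fell with IL-4 by 0.96 (limma, adjusted p of 0.0269), a call kept in 5 of the 9 fits that left out 1 array. The list's median was -0.58 with IL-4 and -0.74 with IL-4d2. Myog, a transcription factor of muscle differentiation singled out after its values were seen, had signals of 62.5, 54.3 and 49.6 in control mice, 8.39, 7.51 and 32.8 in IL-4 mice and 7.96, 12.5 and 6.80 in IL-4d2 mice, all low against the array medians.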
